A study of Mus musculus with 3 samples.

Results

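A set of 38 genes of skin barrier lipid and fatty acid metabolism was followed in RNA sequencing libraries of mouse keratinocytes, the epithelial cells of the epidermis. The genes were picked by name and function, with earlier results of these data known and no threshold on a measured value: 3 make fatty acids, 9 lengthen them, 5 desaturate them, 14 build or break down ceramides and 7 process or carry the finished barrier lipids. All 38 were found by identifier among 41214 listed genes, and 31 of them were among the 11865 genes that reached 1 CPM, a read count scaled to library size, in at least 1 library. Each of these 31 reached that level in all 3 libraries, the lowest value being 2.05 CPM. The study held 1 library for each of 3 genotypes: the library labelled ARPC4 ko, whose title also carries the word Cre, the library labelled Nrf2-EGFP, whose title carries the words High and Nrf2, and the library labelled wt. ARPC4 belongs to the Arp2/3 complex that starts branched actin filaments, and Nrf2 is a transcription factor of antioxidant genes that was joined here to a green fluorescent protein. All cells were of the C57BL/6 strain, had been immortalised with SV40, were growing exponentially and received no treatment, so all groups, wt included, are a proliferating immortalised line rather than epidermis. The sources used here do not give the promoter of the Nrf2-EGFP construct, the deleted exons of Arpc4 or the number of clones.

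The outer barrier of the skin is a layer of lipid between dead cornified cells, made of ceramides, cholesterol and free fatty acids. Keratinocytes build palmitate from acetyl-CoA, lengthen some of it to very long and ultra-long chains, join these chains to a sphingoid base, and load the products as glucosylceramides into lamellar granules that are emptied as the cells cornify. The last steps belong to differentiated upper layers, whereas fatty acid synthesis, desaturation and the common ceramide steps also serve membranes of dividing cells.

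The targeted genes were read first as checks of the labels. Arpc4 stood at 61.0 CPM in the library labelled ARPC4 ko, 98.4 in Nrf2-EGFP and 94.2 in wt, which is 1.54-fold lower in ARPC4 ko than in wt (95% counting interval 1.44 to 1.65). Nfe2l2, which encodes Nrf2, stood at 180 CPM in ARPC4 ko, 166 in the library labelled Nrf2-EGFP and 225 in wt, and was thus 1.35-fold lower in Nrf2-EGFP than in wt. Neither gene passed a 2-fold difference, so the genotypes below are those of the labels. The libraries held 22924294 to 25723959 counts in genes. All 9 keratinocyte markers were measured, with summed levels of 14155 CPM in ARPC4 ko, 18776 in Nrf2-EGFP and 24890 in wt. Most of each sum was Krt5 and Krt14. Krt5 stood at 4260 CPM in ARPC4 ko, 6248 in Nrf2-EGFP and 8997 in wt, and Krt14 at 3248.5 in ARPC4 ko, 4932 in Nrf2-EGFP and 7378 in wt. Among markers of other cells, 0 of 8 sebocyte, 0 of 6 adipocyte, 0 of 5 melanocyte, 0 of 5 immune, 1 of 7 fibroblast and 1 of 4 endothelial genes reached 1 CPM. With 1 library per genotype nothing measures the spread between cultures, so no test of genotypes was possible and no p-value is given. A fold or ratio is that of counts after scaling, and its 95% interval covers counting error only. In bulk RNA, fewer cells of a type and less RNA per cell cannot be told apart.

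Few of the barrier lipid genes differed 2-fold between libraries. A gene was counted as past the 2-fold rule where the log2 ratio of CPM + 0.5 was at least 1 in size and the interval of its ratio left out 1. The library labelled ARPC4 ko had 0 members higher and 2 lower than wt, Abca12 and Cers3, which is 6.45% of the 31 measured members on the lower side, where 2.06% of all genes were lower and 4.70% were higher. The library labelled Nrf2-EGFP had 0 members higher and 1 lower than wt, Abca12, beside 2.05% of all genes lower and 3.57% higher. Between ARPC4 ko and Nrf2-EGFP no member passed in either direction, beside 2.01% of all genes higher and 0.961% lower in ARPC4 ko. With so few members past the rule, these shares describe single genes and not a shift of the whole set.

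Smaller differences lay mostly on the lower side in ARPC4 ko. With the limit at 1.5-fold, 5 of 31 measured members (16.1%) were lower in ARPC4 ko than in wt, namely Abca12, Cers3, Fasn, Elovl6 and Acaca, and 0 were higher, beside 6.24% of all genes lower and 10.8% higher. In Nrf2-EGFP against wt, 1 member was higher, Fads1, and 1 lower, Abca12, beside 8.61% of all genes higher and 5.72% lower, so both counts were at or below the share of all genes. In ARPC4 ko against Nrf2-EGFP, 7 members (22.6%) were lower, namely Cers3, Ugcg, Fasn, Abca12, Acaca, Elovl6 and Scd2, and 1 was higher, Aloxe3, beside 3.38% of all genes lower and 5.85% higher. Scaling to total counts in place of TMM factors left 3 of the 5 calls of ARPC4 ko against wt (Abca12, Cers3 and Fasn) and 5 of the 8 calls against Nrf2-EGFP (Abca12, Cers3, Ugcg, Fasn and Aloxe3). The comparisons share libraries, wt among them, and are not independent of each other.

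The centre of the set differed less than these single genes. The median log2 fold of the 31 measured members was -0.073 in ARPC4 ko against wt, beside -0.014 for all genes. There 11 members lay above 0 and 20 below, where 48.5% of all genes lay above. The median of the members was 0.16 in Nrf2-EGFP against wt, beside 0.0049 for all genes. Above 0 lay 23 members, with 8 below, where 50.5% of all genes lay above. In ARPC4 ko against Nrf2-EGFP the median of the members was -0.33, beside -0.017 for all genes. Here 6 members lay above 0 and 25 below, where 47.1% of all genes lay above. The first of these medians was above 0 (0.032) when libraries were scaled to total counts, which also moved the median of all genes up to 0.089. Summed over the set, the 38 genes took 0.774% of gene counts in ARPC4 ko, 0.996% in Nrf2-EGFP and 0.869% in wt, and Scd2 alone made up 32.6% of the sum in ARPC4 ko, 35.1% in Nrf2-EGFP and 30.5% in wt.

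**Figure D1:**
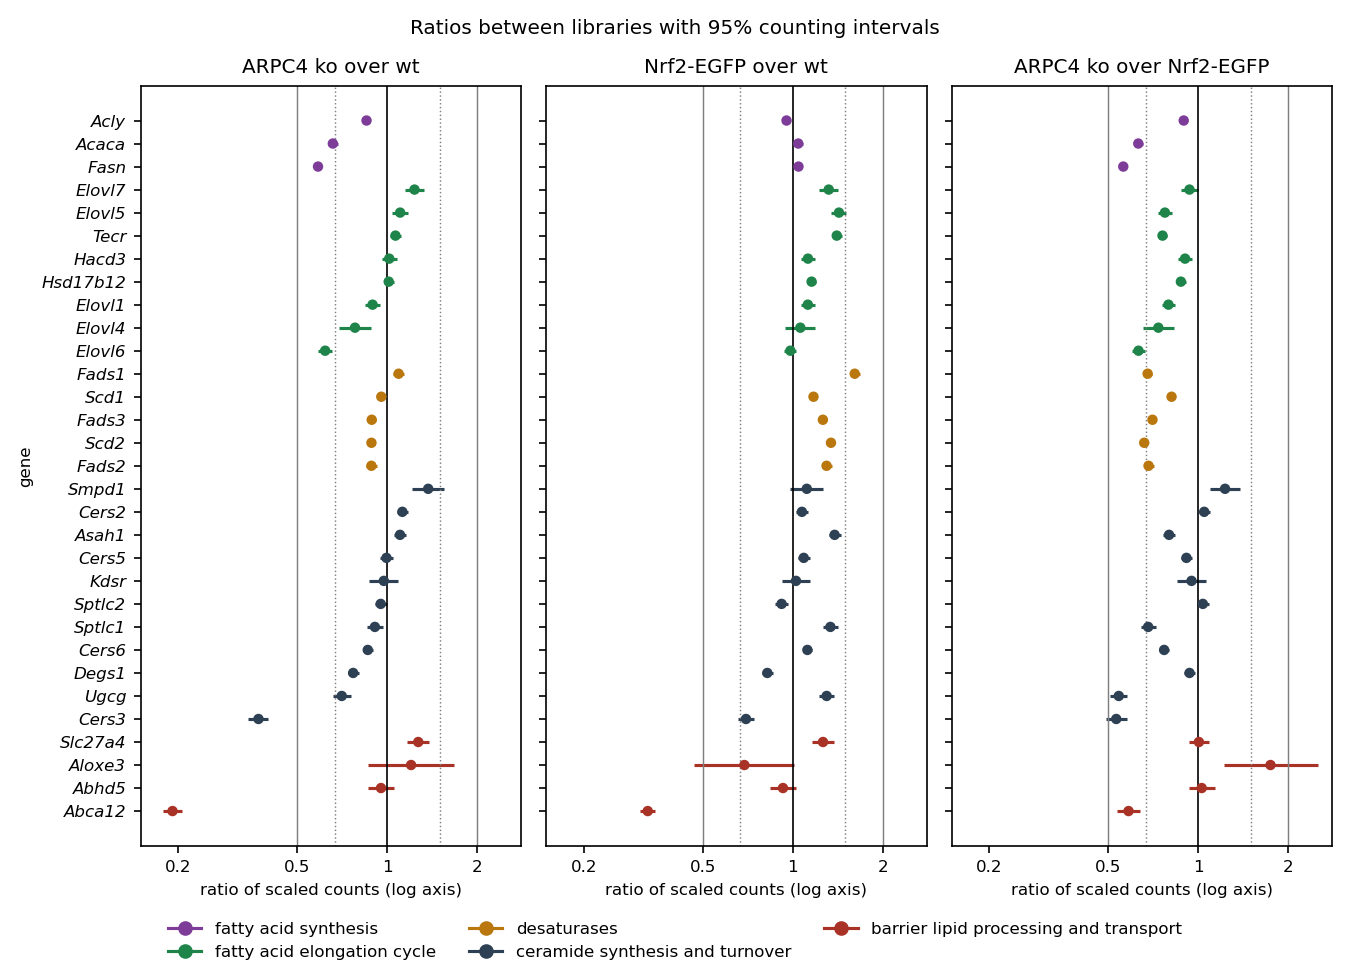
Ratio of scaled counts for the 31 measured genes in each pair of libraries, on a log axis, with points coloured by role and bars giving the 95% counting interval; solid grey lines mark 2-fold and dotted lines 1.5-fold differences. Abca12 and Cers3 lie left of the 2-fold line in ARPC4 ko over wt, only Abca12 does so in Nrf2-EGFP over wt, and no point lies past it in ARPC4 ko over Nrf2-EGFP.

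The sequences just upstream of 3 of these genes are shown because their messages were lower in ARPC4 ko: Abca12, the single member past 2-fold in both comparisons with wt, and Cers3 and Fasn, which were picked after their values were seen. Each is the 250 bases before the RefSeq start of transcription (GRCm38.p6), written 5′ to 3′ on the gene's own strand. Capitals mark matches to the motifs searched on both strands.
Abca12: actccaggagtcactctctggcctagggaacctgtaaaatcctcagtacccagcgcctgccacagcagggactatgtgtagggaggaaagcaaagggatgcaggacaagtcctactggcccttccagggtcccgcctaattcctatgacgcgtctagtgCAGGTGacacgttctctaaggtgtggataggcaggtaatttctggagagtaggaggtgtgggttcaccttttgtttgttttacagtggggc
Cers3: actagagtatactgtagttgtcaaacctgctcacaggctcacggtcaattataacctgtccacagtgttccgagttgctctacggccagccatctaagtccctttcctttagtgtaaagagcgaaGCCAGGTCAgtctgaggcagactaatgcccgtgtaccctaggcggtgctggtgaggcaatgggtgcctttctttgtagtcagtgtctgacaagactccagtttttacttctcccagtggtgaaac
Fasn: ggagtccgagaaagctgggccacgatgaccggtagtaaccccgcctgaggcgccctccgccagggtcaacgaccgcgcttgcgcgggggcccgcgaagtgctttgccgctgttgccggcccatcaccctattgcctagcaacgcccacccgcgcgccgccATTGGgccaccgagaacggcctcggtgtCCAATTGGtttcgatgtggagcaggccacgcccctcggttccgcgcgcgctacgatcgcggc
The Abca12 stretch is chr1:71414911-71415160 on the minus strand, and its capitals are an E-box (CANNTG), the general site of basic helix-loop-helix factors, at 91 to 86 bases before the start. The Cers3 stretch is chr7:66743254-66743503 on the plus strand, and its capitals are the core of an antioxidant response element (TGACNNNGC), the kind of site that Nrf2 binds, read on the opposite strand at 125 to 117 bases before the start. The Fasn stretch is chr11:120824548-120824797 on the minus strand, with 3 CCAAT boxes, the letters recognised by NF-Y, at 90 to 86, 62 to 58 and 59 to 55 bases before the start, and an E-box at 61 to 56 that overlaps the last pair. A sterol regulatory element (TCACNCCAC) and an AP-1 site (TGANTCA) were searched as well and did not match these 3 stretches.

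The same letters were counted across all promoters. Of 27025 RefSeq promoters of the same length, 66.0% held an E-box, 34.5% a CCAAT box, 10.2% the antioxidant core, 6.87% the AP-1 letters and 1.04% the sterol regulatory letters. Of the 32 members with a RefSeq promoter entry, 20 held an E-box, 13 a CCAAT box, 4 the antioxidant core and 0 the AP-1 or the sterol regulatory letters. Aloxe3, Asah1, Elovl3, Fads1, Scd1 and Scd2 were not among them. A match describes letters in this window and is not a measured binding site.

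All 3 genes of fatty acid synthesis were lower in ARPC4 ko than in wt, a comparison in which 48.5% of all genes lay above 0. For these 3 genes, Nrf2-EGFP and wt lay close together. Fasn, the synthase that assembles palmitate (chromosome 11, 120805846 to 120824547, GRCm38), stood at 874 CPM in ARPC4 ko, 1556 in Nrf2-EGFP and 1489 in wt. Acaca, the carboxylase that makes the malonyl-CoA building block, stood at 204 CPM in ARPC4 ko, 323 in Nrf2-EGFP and 310 in wt. Acly, the lyase that makes cytosolic acetyl-CoA from citrate, stood at 581 CPM in ARPC4 ko, 650 in Nrf2-EGFP and 682 in wt. ARPC4 ko was thus the low library for each of the 3 genes. Fasn was 1.70-fold lower in ARPC4 ko than in wt (1.68 to 1.73), Acaca 1.52-fold lower (1.47 to 1.58) and Acly 1.17-fold lower (1.15 to 1.20). Against Nrf2-EGFP, Fasn was 1.78-fold lower in ARPC4 ko (1.75 to 1.81) and Acaca 1.59-fold lower (1.53 to 1.64). In Nrf2-EGFP against wt the ratios were 1.05 for Fasn (1.03 to 1.06), 1.04 for Acaca and 0.953 for Acly. Their summed level was 1658 CPM in ARPC4 ko, 2528 in Nrf2-EGFP and 2480 in wt. Per kilobase of exon, the scale on which levels of different genes can be set side by side, Fasn was the highest of the 3 in Nrf2-EGFP and wt (79.8 CPM per kb in ARPC4 ko, 142 in Nrf2-EGFP and 136 in wt), while Acly was the highest in ARPC4 ko (110 in ARPC4 ko, 123 in Nrf2-EGFP and 129 in wt). In wt, 97.3% of measured genes had a lower level per kilobase than Fasn, 97.1% than Acly and 73.9% than Acaca.

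**Figure D2:**
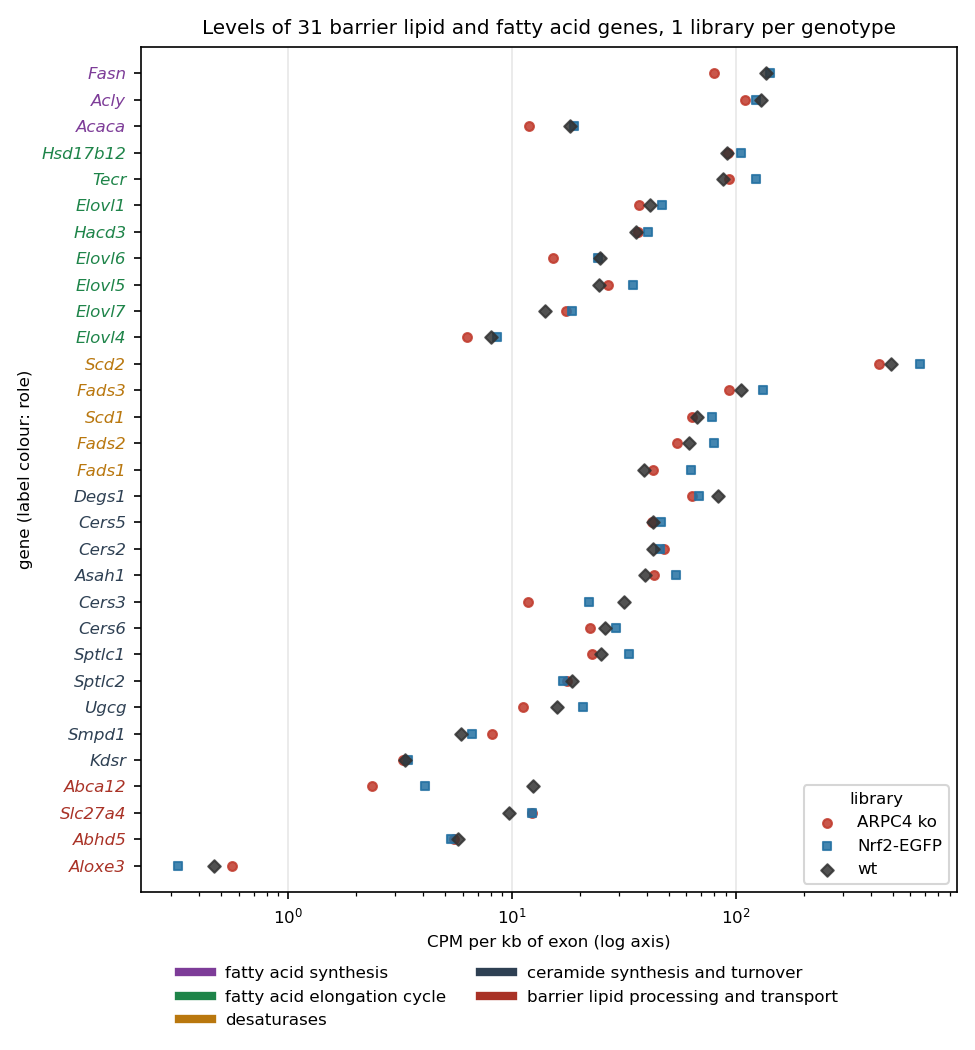
Level of each of the 31 measured genes in the 3 libraries, as CPM per kilobase of exon on a log axis, with gene names coloured by role and 1 point per library. Scd2 stands highest in every library (437 in ARPC4 ko, 662 in Nrf2-EGFP, 494 in wt) and Aloxe3 lowest; the widest gaps between libraries are those of Abca12 and Cers3.

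The elongation cycle lengthens fatty acids by repeated rounds of enzyme steps, of which the elongases (Elovl genes) take the first and decide the chain length. Elovl6, which extends palmitate to stearate, stood at 98.2 CPM in ARPC4 ko, 156 in Nrf2-EGFP and 158 in wt. It was 1.61-fold lower in ARPC4 ko than in wt (1.53 to 1.70) and its ratio in Nrf2-EGFP over wt was 0.982 (0.938 to 1.03), so ARPC4 ko stood apart from a pair of libraries that counting error does not separate. Elovl7 went the other way and was the highest of its role in ARPC4 ko over wt, with a ratio of 1.23 (1.15 to 1.33), at 69.5 CPM in ARPC4 ko, 74.3 in Nrf2-EGFP and 56.3 in wt. Elovl5, which lengthens polyunsaturated chains, had the highest ratio of its role in Nrf2-EGFP over wt, 1.43 (1.35 to 1.51), and its level was 94.6 CPM in ARPC4 ko, 122 in Nrf2-EGFP and 85.7 in wt. Elovl4, the maker of the ultra-long chains of acylceramides, stood at 19.0 CPM in ARPC4 ko, 25.8 in Nrf2-EGFP and 24.4 in wt. It was 1.28-fold lower in ARPC4 ko than in wt (1.13 to 1.45), and its interval in Nrf2-EGFP over wt (0.945 to 1.19) included 1. Elovl1, which makes saturated very long chains, lay within a narrow range of 101 CPM in ARPC4 ko, 127 in Nrf2-EGFP and 113 in wt.

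Elongase levels could also be read as shares of the counts of the listed elongases within a library, which no scaling factor touches. Elovl6 took 25.7% of elongase counts in ARPC4 ko (exact interval 24.8 to 26.6), 30.8% in Nrf2-EGFP (30.02 to 31.64) and 36.2% in wt (35.3 to 37.2). Elovl7 took 18.2% in ARPC4 ko, 14.7% in Nrf2-EGFP and 12.9% in wt, and Elovl5 took 24.7% in ARPC4 ko, 24.2% in Nrf2-EGFP and 19.6% in wt. The share of Elovl6 was thus lowest in ARPC4 ko and that of Elovl7 highest there. The shares of Elovl1 lay close together, at 26.4% in ARPC4 ko, 25.1% in Nrf2-EGFP and 25.8% in wt, as did those of Elovl4, at 4.97% in ARPC4 ko, 5.12% in Nrf2-EGFP and 5.57% in wt. Elovl3, an elongase of sebaceous glands, had 3 counts in each library, which is at the limit that a count of 0 allows.

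The members of the set that complete each round of elongation lay close to wt in ARPC4 ko, and Tecr was higher than wt in Nrf2-EGFP. Hsd17b12, the ketoacyl-CoA reductase, had the highest level per kilobase of its role in wt, at 90.7 CPM per kb, with 91.7 in ARPC4 ko and 105 in Nrf2-EGFP. Tecr, the enoyl-CoA reductase, was the highest of the role in ARPC4 ko (92.7 CPM per kb) and Nrf2-EGFP (122) and stood at 87.0 in wt. Its ratio in Nrf2-EGFP over wt was 1.40 (1.35 to 1.46), while in ARPC4 ko over wt it was 1.07. Hacd3, the dehydratase of the cycle, had ratios of 1.02 in ARPC4 ko over wt and 1.12 in Nrf2-EGFP over wt. Of the 8 measured genes of the role, 7 lay above 0 on the log2 scale in Nrf2-EGFP against wt, where 50.5% of all genes did, and 5 in ARPC4 ko against wt, where 48.5% of all genes did.

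**Figure D3:**
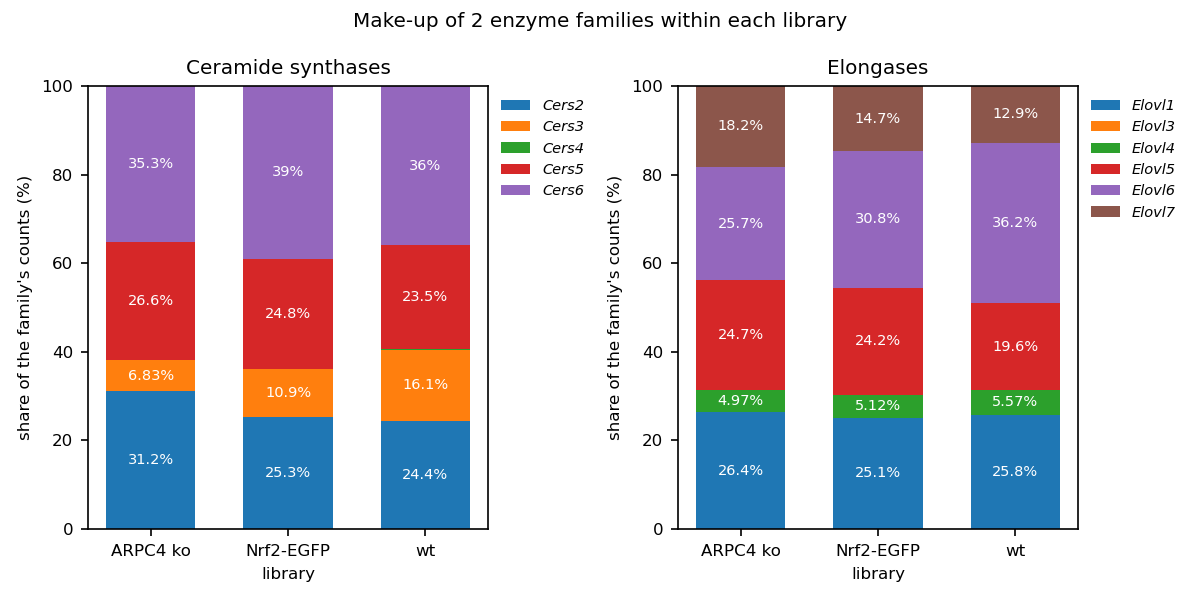
Make-up of the listed ceramide synthases and elongases in each library, as the percentage of the listed family members' counts taken by each gene. The Cers3 segment is 6.83% in ARPC4 ko, 10.9% in Nrf2-EGFP and 16.1% in wt, and the Elovl6 segment 25.7% in ARPC4 ko, 30.8% in Nrf2-EGFP and 36.2% in wt; Cers4 and Elovl3 are too low to see.

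Desaturases put double bonds into fatty acids. All 5 of the set were higher in Nrf2-EGFP than in wt, beside 50.5% of all genes above 0 on the log2 scale. Their log2 folds were 0.23 to 0.69, with a median of 0.37. In ARPC4 ko against wt the same 5 genes spanned only -0.18 to 0.13, with 1 above 0, beside 48.5% of all genes. Fads1, the delta-5 desaturase of polyunsaturated fatty acids, stood at 204 CPM in ARPC4 ko, 301 in Nrf2-EGFP and 187 in wt. Nrf2-EGFP was the high library, with a ratio over wt of 1.61 (1.55 to 1.67), beside 1.09 in ARPC4 ko over wt (1.05 to 1.14). Fads2, the delta-6 desaturase, had a ratio of 1.30 in Nrf2-EGFP over wt (1.25 to 1.35) and Fads3, a close relative that acts on sphingoid bases, 1.26 (1.23 to 1.30). In ARPC4 ko over wt these ratios were 0.885 for Fads2 and 0.887 for Fads3.

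Stearoyl-CoA desaturases make oleate and palmitoleate, and here Scd2 carried most of their message. Scd2 stood at 2388 CPM in ARPC4 ko, 3619 in Nrf2-EGFP and 2697 in wt, and on the scale per kilobase 99.3% of measured genes were below it in wt. Scd1, the form best known from liver and sebaceous gland, stood at 311 CPM in ARPC4 ko, 382 in Nrf2-EGFP and 326 in wt. Scd2 made up 88.5% of the counts of the pair in ARPC4 ko, 90.5% in Nrf2-EGFP and 89.2% in wt, so the make-up of the pair hardly differed between libraries. Scd2 had a ratio of 1.34 in Nrf2-EGFP over wt (1.33 to 1.36) and was 1.13-fold lower in ARPC4 ko than in wt (1.12 to 1.14). Against Nrf2-EGFP, it was 1.52-fold lower in ARPC4 ko. The ratio of Scd1 was 1.17 in Nrf2-EGFP over wt and 0.955 in ARPC4 ko over wt, and the sign of the ARPC4 ko value turned when libraries were scaled to total counts. The genes are close paralogs on chromosome 19, and reads they share may have been lost or split by the counting.

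Ceramide synthesis starts with serine palmitoyltransferase, whose subunits are encoded by Sptlc1, Sptlc2 and Sptlc3. Sptlc1 stood at 80.7 CPM in ARPC4 ko, 119 in Nrf2-EGFP and 88.8 in wt, with a ratio of 1.34 in Nrf2-EGFP over wt (1.26 to 1.42) and 0.909 in ARPC4 ko over wt. Its partner Sptlc2 did not follow it, with a ratio of 0.918 in Nrf2-EGFP over wt (0.875 to 0.963) and levels of 137 to 150 CPM over the 3 libraries. Sptlc3 had 0 counts in ARPC4 ko, 1 in Nrf2-EGFP and 1 in wt. Kdsr, the reductase of the following step, stood between 26.4 and 27.8 CPM, and its intervals included 1 in both comparisons with wt.

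The ceramide synthases join a fatty acid to the sphingoid base, each preferring certain chain lengths, and Cers3 is the form that takes the ultra-long chains of epidermal ceramides. Cers3 (chromosome 7, 66743504 to 66823691) stood at 38.3 CPM in ARPC4 ko, 72.0 in Nrf2-EGFP and 103 in wt. The libraries were evenly spread, with ARPC4 ko lowest. Cers3 was 2.70-fold lower in ARPC4 ko than in wt (2.50 to 2.91), 1.43-fold lower in Nrf2-EGFP than in wt (1.35 to 1.53) and 1.88-fold lower in ARPC4 ko than in Nrf2-EGFP (1.74 to 2.04). The other synthases did not share this pattern. Cers2, the form for very long chains, stood at 175 CPM in ARPC4 ko, 167 in Nrf2-EGFP and 156 in wt, and Cers6, which takes palmitate, at 198 CPM in ARPC4 ko, 258 in Nrf2-EGFP and 230 in wt. Cers5, also a palmitate-preferring form, lay between 149 and 164 CPM, and Cers4 had 2 counts in ARPC4 ko, 0 in Nrf2-EGFP and 2 in wt. Shares were taken of the summed counts of the listed synthases, Cers2 to Cers6. Cers3 was 6.83% in ARPC4 ko (6.41 to 7.26), 10.9% in Nrf2-EGFP (10.4 to 11.4) and 16.1% in wt (15.5 to 16.7). Cers2 was 31.2% in ARPC4 ko, 25.3% in Nrf2-EGFP and 24.4% in wt. The intervals of the Cers3 shares did not overlap.

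Downstream of the synthases the genes went in different directions. Degs1, which desaturates dihydroceramide to ceramide and had the highest level per kilobase of its role in all 3 libraries (63.8 CPM per kb in ARPC4 ko, 68.2 in Nrf2-EGFP and 82.9 in wt), was 1.30-fold lower in ARPC4 ko than in wt (1.25 to 1.36) and 1.22-fold lower in Nrf2-EGFP than in wt (1.17 to 1.27). Degs2, the form that hydroxylates the base to make phytoceramide, had 3 counts in ARPC4 ko, 0 in Nrf2-EGFP and 9 in wt. The interval of its ratio in ARPC4 ko over wt (0.0537 to 1.24) included 1, and in Nrf2-EGFP over wt the interval ran from 0 to 0.4585. Its exons overlap Evl on the opposite strand and the sources used here do not give the strand setting of the counting.

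Ugcg, the glucosylceramide synthase, lay on opposite sides of wt in the other libraries. It stood at 58.3 CPM in ARPC4 ko, 108 in Nrf2-EGFP and 82.8 in wt. It was 1.42-fold lower in ARPC4 ko than in wt (1.32 to 1.52), had a ratio of 1.30 in Nrf2-EGFP over wt (1.22 to 1.38) and was 1.84-fold lower in ARPC4 ko than in Nrf2-EGFP (1.73 to 1.97). The genes of lysosomal breakdown stood above wt in both libraries, although the interval of Smpd1 in Nrf2-EGFP over wt (0.982 to 1.27) included 1. Asah1, the acid ceramidase, stood at 146 CPM in ARPC4 ko, 183 in Nrf2-EGFP and 132 in wt, with ratios over wt of 1.103 (1.05 to 1.158) in ARPC4 ko and 1.38 (1.32 to 1.45) in Nrf2-EGFP. Smpd1, the acid sphingomyelinase, had the highest ratio of its role in ARPC4 ko over wt, 1.37 (1.21 to 1.55), at 27.1 CPM in ARPC4 ko, 22.1 in Nrf2-EGFP and 19.8 in wt.

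Among the genes of barrier lipid processing and transport, Abca12 differed most. Abca12, the transporter that fills lamellar granules with glucosylceramide and whose loss causes harlequin ichthyosis, lies on chromosome 1 (71242276 to 71414910). It stood at 35.1 CPM in ARPC4 ko, 60.1 in Nrf2-EGFP and 184 in wt, so wt was high and both other libraries low. It was 5.22-fold lower in ARPC4 ko than in wt (4.85 to 5.63) and 3.05-fold lower in Nrf2-EGFP than in wt (2.88 to 3.24). Between these libraries it was 1.71-fold lower in ARPC4 ko than in Nrf2-EGFP (1.57 to 1.86). Per kilobase it was the highest gene of its role in wt alone, at 2.37 CPM per kb in ARPC4 ko, 4.06 in Nrf2-EGFP and 12.4 in wt. In ARPC4 ko and Nrf2-EGFP that place was held by Slc27a4, a fatty acid transport protein, at 12.3 CPM per kb in ARPC4 ko, 12.2 in Nrf2-EGFP and 9.70 in wt. The ratio of Slc27a4 over wt was 1.27 (1.17 to 1.38) in ARPC4 ko and 1.26 (1.16 to 1.37) in Nrf2-EGFP, opposite in direction to Abca12. Abhd5, the lipase coactivator that is mutated in a form of ichthyosis with fat storage, lay between 31.7 and 34.2 CPM, and its intervals included 1 in all 3 comparisons.

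The enzymes that finish acylceramides and remodel them had low levels in every library, and all but Aloxe3 stayed under 1 CPM. Aloxe3, which acts after Alox12b on the linoleate of acylceramides, had 3.58 CPM in ARPC4 ko, 2.05 in Nrf2-EGFP and 2.98 in wt. Its interval included 1 in both comparisons with wt, and its ratio in ARPC4 ko over Nrf2-EGFP was 1.74 (1.22 to 2.51). Cyp4f39, the mouse counterpart of the human hydroxylase that prepares ultra-long chains for acylceramide, had 1 count in ARPC4 ko, 1 in Nrf2-EGFP and 20 in wt. The ratio over wt was 0.0463 in ARPC4 ko (0.00112 to 0.289) and 0.0453 in Nrf2-EGFP (0.00109 to 0.283), so wt held most of the few reads. Alox12b, the lipoxygenase that takes the first of these steps, had 2 counts in ARPC4 ko, 0 in Nrf2-EGFP and 12 in wt. The ratio in ARPC4 ko over wt was 0.154 (0.0168 to 0.693), and the interval in Nrf2-EGFP over wt ran from 0 to 0.326. Pnpla1, the transacylase that completes acylceramide, had 5 counts in ARPC4 ko, 3 in Nrf2-EGFP and 6 in wt, too few to show a difference at this depth.

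Most of the listed markers of differentiated keratinocytes, but not Lor, were lower in the same libraries as Abca12 and Cers3. Of 9 suprabasal markers 8 were measured, and 7 of these were lower past 2-fold in ARPC4 ko than in wt and 6 in Nrf2-EGFP than in wt, beside 2.06% of all genes lower in ARPC4 ko and 2.05% in Nrf2-EGFP. Krt1, Dsc1, Dsg1a, Dsg1b and Krtdap reached 1 CPM in wt alone and so passed the filter only through the library where they are high. Their direction in these counts and in the median was thus largely set by the filter. Of the other measured markers, Sbsn passed in both comparisons, Ivl in ARPC4 ko only, and Krt10 in neither (ratios over wt of 0.712 and 0.696). The summed level of the 9 markers was 21.4 CPM in ARPC4 ko, 27.9 in Nrf2-EGFP and 99.2 in wt. Most of it was Sbsn, at 13.9 CPM in ARPC4 ko, 19.2 in Nrf2-EGFP and 67.3 in wt. Krt1, the keratin that marks the first suprabasal layer, had 1 count in ARPC4 ko, 0 in Nrf2-EGFP and 30 in wt. Lor stayed under 1 CPM in all 3, with 21 counts in ARPC4 ko, 20 in Nrf2-EGFP and 12 in wt. Of the cornification genes of another list below, Tgm1 was higher and Casp14 lower than wt in both libraries. The median log2 fold of the 8 measured markers was -2.00 in ARPC4 ko and -1.83 in Nrf2-EGFP. For Abca12 the log2 fold was -2.37 in ARPC4 ko and -1.60 in Nrf2-EGFP. The part of these markers in the lower levels of Abca12, Cers3, Cyp4f39 and Alox12b was not tested. Of the 9 keratinocyte markers, 2 (22.2%), the basal keratins Krt5 and Krt14, were lower past 2-fold in ARPC4 ko than in wt, beside 2.06% of all genes. Of the 9, 8 lay below 0 on the log2 scale in that comparison, among them Itgb4 at -0.014. Trp63 lay above 0, at 0.24. No keratinocyte marker passed the rule in Nrf2-EGFP against wt.

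**Figure D4:**
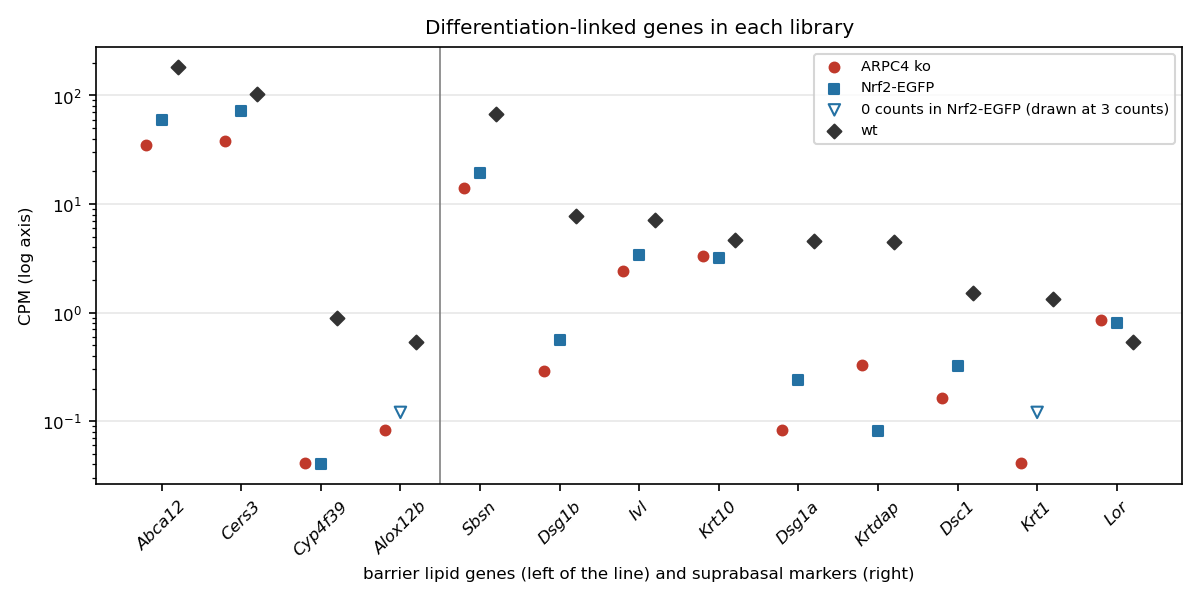
Levels in CPM on a log axis of 4 barrier lipid genes (left of the line) and of the 9 suprabasal markers (right), with 1 point per library and an open triangle at 3 counts where Nrf2-EGFP had 0. Abca12 and Cers3 and 8 of the markers are highest in wt; Lor, under 1 CPM in each library, is not.

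Further genes of the same pathways were read from 5 lists, whose counts past the 2-fold rule stand beside the shares of all genes: 4.70% higher and 2.06% lower in ARPC4 ko than in wt, and 3.57% higher and 2.05% lower in Nrf2-EGFP than in wt. Of 21 measured sphingolipid genes 1 (4.76%) was higher in ARPC4 ko than in wt, close to the share of all genes, 0 were lower, and none passed in Nrf2-EGFP against wt. This was Sgms2, a sphingomyelin synthase, at 32.0 CPM in ARPC4 ko, 26.8 in Nrf2-EGFP and 13.3 in wt, with log2 folds over wt of 1.24 in ARPC4 ko and 0.99 in Nrf2-EGFP, just short of the limit. The medians of the list were -0.068 in ARPC4 ko and 0.13 in Nrf2-EGFP against wt. Of 16 measured genes of fatty acid supply and activation, 0 were higher and 2 (12.5%) lower in each of the libraries ARPC4 ko and Nrf2-EGFP than in wt, and the medians were -0.16 in ARPC4 ko and 0.048 in Nrf2-EGFP. Fabp5, the fatty acid binding protein of epidermis, stood at 34.6 CPM in ARPC4 ko, 39.6 in Nrf2-EGFP and 156 in wt, with log2 folds over wt of -2.16 in ARPC4 ko and -1.97 in Nrf2-EGFP. Like Abca12 it was high in wt and low in both other libraries. The second gene was Slc27a6, a fatty acid transport protein under 3 CPM in each library, which is named here after its values were seen. Slc27a6 reached 1 CPM in wt alone, so it passed the filter only through the library where it is high.

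Of 14 measured genes of barrier lipids and ichthyosis, 3 (21.4%) were higher and 1 (7.14%) lower in ARPC4 ko than in wt, and 1 (7.14%) was higher and 2 (14.3%) lower in Nrf2-EGFP than in wt, beside 4.70% of all genes higher and 2.06% lower in ARPC4 ko and 3.57% higher and 2.05% lower in Nrf2-EGFP, with medians of 0.11 in ARPC4 ko and 0.14 in Nrf2-EGFP. Abcg1, a sterol exporter, stood at 21.3 CPM in ARPC4 ko, 19.6 in Nrf2-EGFP and 4.85 in wt, with log2 folds over wt of 2.03 in ARPC4 ko and 1.91 in Nrf2-EGFP. Tgm1, the transglutaminase that crosslinks the cornified envelope, stood at 26.8 CPM in ARPC4 ko, 15.6 in Nrf2-EGFP and 11.7 in wt, a log2 fold of 1.17 in ARPC4 ko. The third higher gene in ARPC4 ko was Abca1, a sterol exporter under 3 CPM in each library and named after its values were seen. Abca1 reached 1 CPM in ARPC4 ko alone, so it passed the filter only through the library where it is high. Casp14, a caspase of cornification, stood at 8.93 CPM in ARPC4 ko, 7.93 in Nrf2-EGFP and 24.2 in wt, with log2 folds of -1.39 in ARPC4 ko and -1.55 in Nrf2-EGFP. The genes of this list thus went both ways, and Sult2b1, the sulfotransferase of cholesterol, was lower past the rule in Nrf2-EGFP than in wt (19.1 CPM in ARPC4 ko, 16.1 in Nrf2-EGFP and 32.9 in wt).

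Of 15 measured regulators of lipid synthesis and barrier formation, 1 (6.67%) was lower in ARPC4 ko and in Nrf2-EGFP than in wt, beside 2.06% and 2.05% of all genes, and 0 were higher, with medians of -0.032 in ARPC4 ko and 0.076 in Nrf2-EGFP. It was Zfp750, a zinc finger factor of epidermal differentiation, at 6.66 CPM in ARPC4 ko, 1.37 in Nrf2-EGFP and 16.5 in wt, with log2 folds of -1.24 in ARPC4 ko and -3.18 in Nrf2-EGFP. Srebf1, the factor that drives Fasn, Acaca and Scd genes, and Insig1, its sterol-sensing brake, were picked after their values were seen. Srebf1 stood at 190 CPM in ARPC4 ko, 199 in Nrf2-EGFP and 143 in wt. Its part in the levels of Fasn and Acaca was not tested. Insig1 stood at 134 CPM in ARPC4 ko, 168 in Nrf2-EGFP and 187 in wt. Of 17 measured genes of fatty acid oxidation, 1 (5.88%) was higher in ARPC4 ko than in wt, beside 4.70% of all genes, 0 were lower and none passed in Nrf2-EGFP against wt, with medians of 0.0016 in ARPC4 ko and -0.13 in Nrf2-EGFP. It was Cpt1c, a carnitine palmitoyltransferase known from brain, at 12.8 CPM in ARPC4 ko, 0.966 in Nrf2-EGFP and 1.51 in wt. In ARPC4 ko against Nrf2-EGFP, the genes of the 5 lists past the rule were Cpt1c, Zfp750 and Abca1, all higher in ARPC4 ko. They were 1 of 17, 1 of 15 and 1 of 14 measured genes of their lists, and the other lists had none. Of all genes, 2.01% were higher and 0.961% lower in that comparison. Abca1 reached 1 CPM in ARPC4 ko alone.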

How the data were processed

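RNA was measured in 3 libraries of keratinocytes, 1 per genotype. Per the labels' protocols, RNA was extracted with TRIzol, strand-specific libraries were made with a TruSeq mRNA kit, and single-end reads of 65 bp were sequenced. Bowtie 1.1, TopHat2 2.1.0, HTSeq and build mm10 are named, without roles, per the submitters' processing notes. The sources used here do not give settings, strand mode or annotation release. The authors deposited whole-number read counts for each gene, without normalisation. Entries that name no gene, which held 8.22% to 9.08% of all counts, were left out.

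Symbols, positions and exon lengths came from GENCODE M21 by identifier (40254 of 41214 with a symbol). Libraries were scaled with TMM factors (1.06 in ARPC4 ko, 0.966 in Nrf2-EGFP, 0.981 in wt) of edgeR 4.0.16 in R 4.3.3, and no edgeR test was run. The filter kept genes that reached 1 CPM in any library. Intervals are exact 95% Clopper-Pearson intervals (scipy 1.17.1) for the ratio of counts given a gene's sum. They cover counting error only, since reads lacking molecular identifiers need not be separate molecules. The limit that a 0 allows is 3 counts, which is 0.123 CPM in ARPC4 ko, 0.121 in Nrf2-EGFP and 0.133 in wt. The steps were tested on simulated data.

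The members, lists and rules were chosen with earlier results of these data known. Each member is named. Values in all libraries are given for members past the 2-fold rule, for the highest per kilobase of each role and for Abca12, Cers3, Elovl4, Fasn, Scd1 and Scd2, and of each list of other genes for up to 3 past the rule with at least 10 CPM. Values of further members are given where they were read to describe a role. Exons of 8 members overlap a gene on the opposite strand. Alternatives were other scalings (DESeq2 1.42.0 size factors, upper quartile, total counts), filters, pseudocounts and a 1.5-fold limit.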

Additional observations from a re-analysis of the deposited data

How the results depend on the processing

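No paired analysis was possible because each genotype has 1 library, and for the same reason no replicate could be left out. The count of members past the rule in ARPC4 ko against wt was 2, 3 with no filter on low counts, which lets in Cyp4f39, and 5 with a 1.5-fold limit; under that limit it was 3 with total counts. In Nrf2-EGFP against wt the count was 1, 2 with the 1.5-fold limit and 3 with no filter on low counts, which lets in Cyp4f39 and Alox12b. In ARPC4 ko against Nrf2-EGFP it was 0, and 8 with the 1.5-fold limit; under that limit it was 5 with total counts. The median log2 fold of the members in ARPC4 ko against wt was -0.073, and 0.032 with total counts. In ARPC4 ko against Nrf2-EGFP it was -0.33, against -0.20 with total counts and -0.18 with no filter. Total counts raise the median of all genes to 0.089 and 0.11 in these comparisons. The counts under total counts as the scaling of the 1.5-fold limit were added after the data were seen. Of 465 values of single members under other scalings and pseudocounts, 408 counted as unchanged and 57 as moved. The moved values were 50 under total counts and 7 under the upper quartile. A value past the 2-fold rule counted as unchanged if it stayed past the rule, without a check against its interval. Any other value did so if it stayed within its counting interval. No value that was past the 2-fold rule turned sign. Small differences did turn: Abhd5, Cers5, Kdsr, Scd1 and Sptlc2 in ARPC4 ko against wt, and Degs1, Elovl7 and Kdsr in ARPC4 ko against Nrf2-EGFP. Depth limits Elovl3, Cers4, Sptlc3, Degs2, Pnpla1, Alox12b and Cyp4f39, which had at most 20 counts in any library.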
